A study of Mus musculus with 15 samples.

Results

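The genes described here are Trp53, which encodes the transcription factor p53, and 8 genes that p53 is known to switch on: Mdm2, Cdkn1a, Ccng1, Fas, Bbc3, Aen, Zmat3 and Trp53inp1. They are members of a named list, drawn up with earlier results of these data known, and all 9 were among the 13123 genes that passed the expression filter, out of 52327 entries with a gene name. RNA came from mouse cells of a line named HoxB, with blood as the labelled cell type, and was measured in 15 libraries that fall into 5 groups of 3. EMPTY cells carried control vectors, RUNX1-ETO_ONLY cells carried the fusion RUNX1-ETO, and CSF3R_ONLY cells carried the mutant receptor CSF3R-T618I. Both alleles were present in RUNX1-ETO_FIRST and in CSF3R_FIRST cells, in the order that each name gives. RUNX1-ETO joins the DNA-binding part of RUNX1 to ETO and occurs in acute myeloid leukaemia, and CSF3R-T618I is an activating mutation of the receptor for granulocyte colony-stimulating factor. The study's title and design concern the order in which the alleles are expressed. The labels give neither the promoters that drove the alleles nor whether a group was 1 clone, and they do not say that the 3 libraries of a group were separate cultures, so the p-values measure a spread that may be technical.

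p53 is kept low in unstressed cells by MDM2, which binds it and marks it for degradation, and it accumulates mainly through protein stabilisation after DNA damage or oncogene activity. It binds a pair of 10-base elements near its target genes and raises their transcription. Among these targets are genes that stop the cell cycle, genes that promote apoptosis and genes that feed back on p53 itself. In blood progenitors p53 limits cycling and survival, and acute myeloid leukaemia can carry lesions of the pathway.

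RefSeq promoter windows of GRCm38.p6, which run from 250 bases before a gene's start to 50 bases after it, were found for 7 of the 9 genes, with 11 windows in all. Zmat3 and Trp53inp1 had no entry. The p53 consensus, a pair of 10-base elements that each read the same on both strands, was searched with up to 2 mismatches and a spacer of up to 13 bases. Unspaced sites with 1 mismatch were found in a window of Cdkn1a and in the window of Ccng1, which are shown because Cdkn1a is the gene with the highest level of these targets and because only 22 of 32851 windows (0.067%) hold such a site. Capitals mark the unspaced 20-base site in each window, written 5′ to 3′ on the strand of the gene.
Cdkn1a, chr17:29090729-29091028, plus strand: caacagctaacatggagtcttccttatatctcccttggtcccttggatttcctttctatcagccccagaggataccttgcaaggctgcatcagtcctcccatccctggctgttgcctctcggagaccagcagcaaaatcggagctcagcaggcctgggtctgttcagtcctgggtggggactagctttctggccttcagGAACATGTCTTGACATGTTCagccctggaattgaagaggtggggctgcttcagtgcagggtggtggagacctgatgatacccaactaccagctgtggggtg
Ccng1, chr11:40755237-40755536, minus strand: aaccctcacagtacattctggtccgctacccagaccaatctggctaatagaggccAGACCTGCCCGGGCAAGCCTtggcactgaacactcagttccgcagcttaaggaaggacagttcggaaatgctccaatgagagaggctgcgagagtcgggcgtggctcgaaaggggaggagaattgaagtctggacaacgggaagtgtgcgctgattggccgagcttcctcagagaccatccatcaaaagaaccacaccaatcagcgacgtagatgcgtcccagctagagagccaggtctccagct
The site of Cdkn1a lay at chr17:29090928-29090947, from 51 to 32 bases before the start of the transcript, and reads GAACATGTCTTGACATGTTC. Its first element was also part of a site with no mismatch and a spacer of 12 bases, at chr17:29090906-29090937. The other Cdkn1a window, chr17:29093519-29093818, held no site. The site of Ccng1 lay at chr11:40755462-40755481, from 195 to 176 bases before the start, and reads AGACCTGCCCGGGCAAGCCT. The windows of Mdm2, Fas, Bbc3, Aen and Trp53 held no site under this rule, and 4.09% of all windows held one. A match describes the letters of a window and is no measurement of binding, and no match says only that these letters are not in that window.

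The libraries held 17003189 to 18173954 counts, and levels are given as CPM, counts relative to a library size that is scaled for composition, as mean ± SD over 3 libraries. Changes are log2 fold changes with their standard error (SE), tested in edgeR's quasi-likelihood test with Benjamini-Hochberg adjustment over the 13123 genes, and a gene is said to have risen or fallen where the adjusted p was under 0.05. Runx1t1, the mouse gene that corresponds to ETO, had 0 counts in EMPTY and CSF3R_ONLY and 381 to 812 CPM in every library labelled with the fusion. Csf3r did not separate the groups labelled with the mutant receptor, with means of 420 ± 46.1 CPM in EMPTY, 622 ± 4.60 in CSF3R_ONLY and 398 ± 32.1 in CSF3R_FIRST. None of 6 blood cell markers was at 0, with sums of 3464 to 6149 CPM, whereas 4 lymphocyte markers summed to at most 0.424 CPM. Compared with their own groups, 4 libraries held fewer counts from long transcripts and are called length-skewed below: EMPTY 3, RUNX1-ETO_ONLY 3, RUNX1-ETO_FIRST 1 and CSF3R_FIRST 3, in which the deviation from the group mean correlated with transcript length across genes at -0.478 to -0.275. Mast cell markers also differed between groups: all 5 of 5 were higher than in EMPTY in every other group, and their summed level was 807 to 1316 CPM in EMPTY, 9801 to 10840 in RUNX1-ETO_ONLY, 2230 to 2328 in CSF3R_ONLY, 11750 to 14900 in RUNX1-ETO_FIRST. It was highest in CSF3R_FIRST, at 21080 to 25840 CPM. Markers of granulocyte and monocyte precursors were lower in sum outside EMPTY: the sum of 4 was 48730 to 56440 CPM in EMPTY, 31580 to 31930 in CSF3R_ONLY and 20180 to 21790 in RUNX1-ETO_ONLY. With both alleles it was 16330 to 18510 CPM when the fusion came first and 17090 to 17780 when the receptor did. Of these 4 markers, 4 fell against EMPTY in RUNX1-ETO_ONLY, 2 in CSF3R_ONLY and 3 in each group with both alleles. Most of the sum is Mpo, with a mean of 45076 CPM in EMPTY. Ctsg went the other way in CSF3R_FIRST, with a mean of 3800 CPM against 3112 in EMPTY, though these groups overlap. In such bulk samples, fewer cells of a type and less RNA per cell cannot be told apart. The part of cell composition in the results below, for any of these marker lists, was not tested.

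**Figure D1:**
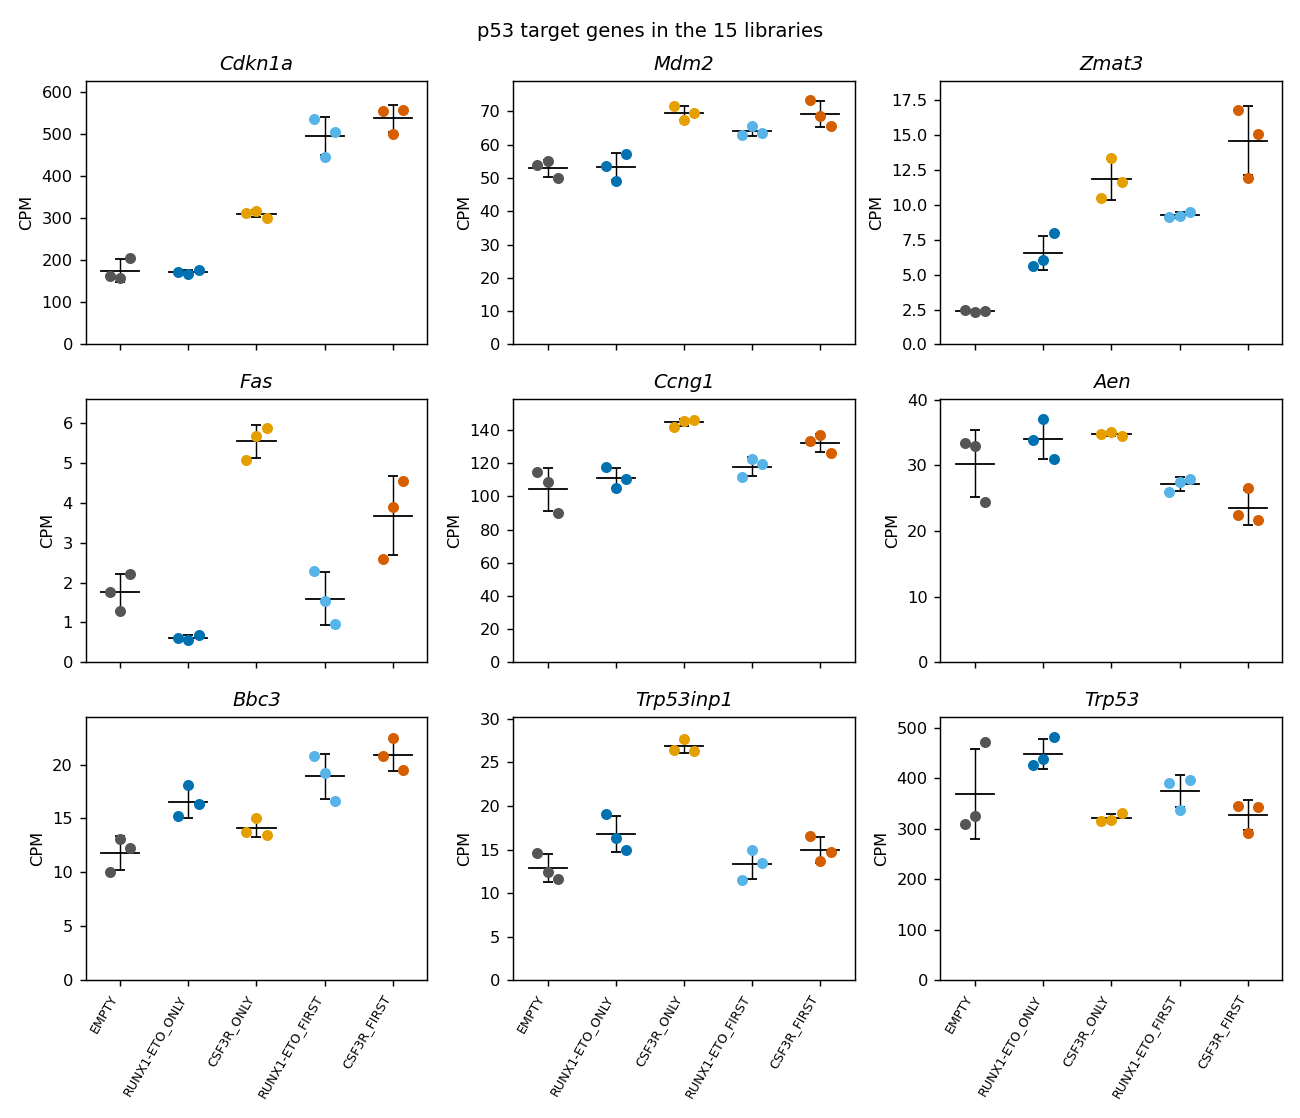
Level of each of the 9 genes in every library, in CPM on an axis that starts at 0, by group; points are libraries, lines are group means and bars are ±1 SD over 3 libraries. Cdkn1a lies between 446 and 557 CPM in the 6 libraries with both alleles, above every other library, while Trp53 lies between 293 and 483 CPM with RUNX1-ETO_ONLY above all 9 libraries labelled with the receptor and overlapping EMPTY through EMPTY 3.

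The transcript of p53 itself was abundant in all groups. In edgeR's test 0 of 7 pair comparisons of Trp53 passed the threshold, with 0 in DESeq2 and 1 at an unadjusted p under 0.05. Trp53 (chr11:69580359-69591873, plus strand, mm10) measured 310, 325 and 473 CPM in the EMPTY libraries, 426, 437 and 483 in RUNX1-ETO_ONLY, 316, 318 and 331 in CSF3R_ONLY, 390, 338 and 396 in RUNX1-ETO_FIRST, and 346, 293 and 344 in CSF3R_FIRST. EMPTY 3 stood above the other controls and within the range of RUNX1-ETO_ONLY. The other groups overlapped EMPTY, and RUNX1-ETO_FIRST lay wholly below RUNX1-ETO_ONLY. Among the 7 pairs tested, the largest difference was that of RUNX1-ETO_ONLY from EMPTY, 449 ± 30.0 against 369 ± 90.1 CPM, with a log2 change of 0.28 (SE 0.13, 95% interval -0.01 to 0.57, adjusted p = 0.104 in edgeR). Without EMPTY 3 this change was 0.48 with an adjusted p of 0.000161, and without the 4 length-skewed libraries it was 0.43 with 2.79e-05. With the replicate number as a block it was 0.30 with an adjusted p of 0.0366, and the libraries numbered 3 in both groups are length-skewed. CSF3R_ONLY differed from EMPTY by -0.20 (95% interval -0.49 to 0.09) and CSF3R_FIRST by -0.17 (-0.46 to 0.12), both with intervals that include 0. RUNX1-ETO_FIRST differed from EMPTY by 0.02 (-0.27 to 0.31), and from RUNX1-ETO_ONLY by -0.26 (-0.55 to 0.03). Without EMPTY 3, RUNX1-ETO_FIRST was past the threshold in both comparisons, with adjusted p of 0.0463 against EMPTY and 0.0112 against RUNX1-ETO_ONLY. With scaling to library size alone, Trp53 was past the threshold in RUNX1-ETO_ONLY against EMPTY (0.0192), CSF3R_FIRST against EMPTY (0.0311) and RUNX1-ETO_FIRST against RUNX1-ETO_ONLY (0.0193). These values concern the transcript and say nothing of the amount of p53 protein, which was not measured. The processed pseudogene Trp53-ps had 0 to 11 counts per library in the same table.

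Mdm2, the ubiquitin ligase that degrades p53 and is itself a p53 target, rose in each of the 3 groups that carried the mutant receptor and showed no detectable change in cells with the fusion alone. Mdm2 (chr10:117688875-117710758, minus strand) measured 53.8, 54.9 and 49.9 CPM in EMPTY, 53.6, 49.1 and 57.2 in RUNX1-ETO_ONLY, 71.6, 67.5 and 69.5 in CSF3R_ONLY, 63.0, 65.7 and 63.4 in RUNX1-ETO_FIRST and 73.4, 68.6 and 65.6 in CSF3R_FIRST. All 9 libraries with the receptor lay above all 6 without it. The log2 change from EMPTY was 0.40 in CSF3R_ONLY (SE 0.07, adjusted p = 0.000646), 0.28 in RUNX1-ETO_FIRST (0.07, 0.00692) and 0.39 in CSF3R_FIRST (0.07, 0.000381) in edgeR's test. In RUNX1-ETO_ONLY it was 0.01, with a 95% interval of -0.15 to 0.18. The change of Mdm2 in RUNX1-ETO_FIRST was not past the threshold when only that group and EMPTY were fitted (adjusted p = 0.0537). Adding the receptor to fusion cells raised Mdm2 by 0.26 (adjusted p = 0.0152 in edgeR), a call that was lost without RUNX1-ETO_FIRST 2 (0.0545), without RUNX1-ETO_ONLY 2 (0.0819), with scaling to library size alone (0.172) and with no filter on low counts (0.0731). Adding the fusion to receptor cells gave -0.01 (95% interval -0.17 to 0.16).

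The largest change in CPM among the 9 genes was that of Cdkn1a, which encodes the cyclin-dependent kinase inhibitor p21 and carries the promoter site printed above. Cdkn1a (chr17:29090976-29100727, plus strand) measured 162, 158 and 206 CPM in EMPTY and 172, 167 and 178 in RUNX1-ETO_ONLY, which overlap. It measured 312, 318 and 301 CPM in CSF3R_ONLY, 535, 446 and 506 in RUNX1-ETO_FIRST and 554, 500 and 557 in CSF3R_FIRST. CSF3R_ONLY lay above every library of EMPTY and RUNX1-ETO_ONLY, and both groups with both alleles lay above CSF3R_ONLY and overlapped each other. Against EMPTY, Cdkn1a was 1.77-fold higher in CSF3R_ONLY (log2 0.82, SE 0.10, adjusted p = 7.83e-06 in edgeR), 2.83-fold higher in RUNX1-ETO_FIRST (1.499, 0.10, 5.02e-09) and 3.06-fold higher in CSF3R_FIRST (1.62, 0.10, 1.56e-09). The fusion alone gave a log2 change of -0.03 with a 95% interval of -0.24 to 0.19. The same fusion raised Cdkn1a when added to receptor cells, by 0.79 (SE 0.10, adjusted p = 6.72e-06 in edgeR), and the receptor raised it in fusion cells by 1.52 (0.10, 1.57e-08). These 5 calls held under all 22 alternative settings. An unnamed gene model on the other strand overlaps 7.68% of the exon bases of Cdkn1a, and whether the counts used strand is not stated in the labels.

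Ccng1, which encodes cyclin G1 and holds the other promoter site, rose in both CSF3R_ONLY and CSF3R_FIRST. Ccng1 (chr11:40748552-40755311, minus strand) measured 115, 109 and 89.8 CPM in EMPTY, 117, 105 and 111 in RUNX1-ETO_ONLY, 142, 146 and 146 in CSF3R_ONLY, 111, 123 and 120 in RUNX1-ETO_FIRST and 134, 137 and 126 in CSF3R_FIRST. CSF3R_ONLY and CSF3R_FIRST lay above all other libraries, and the remaining 3 groups overlapped. The log2 change from EMPTY was 0.47 in CSF3R_ONLY (SE 0.08, adjusted p = 0.000417) and 0.34 in CSF3R_FIRST (0.08, 0.003), against 0.18 in RUNX1-ETO_FIRST (0.08, 0.108) and 0.09 in RUNX1-ETO_ONLY (0.08, 0.43) in edgeR's test. The call in CSF3R_FIRST was lost with scaling to library size alone (adjusted p = 0.0976). Without EMPTY 1, the change in RUNX1-ETO_FIRST was 0.25 with an adjusted p of 0.0377.

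The apoptosis genes did not share a pattern. Fas encodes a death receptor of the TNF receptor family, and it rose with the receptor and fell with the fusion. Fas (chr19:34290666-34327772, plus strand) was low, with 11 to 102 counts per library. It measured 1.76, 1.28 and 2.22 CPM in EMPTY, 0.612, 0.565 and 0.681 in RUNX1-ETO_ONLY, 5.08, 5.67 and 5.88 in CSF3R_ONLY, 2.30, 1.54 and 0.959 in RUNX1-ETO_FIRST and 2.59, 3.90 and 4.55 in CSF3R_FIRST. RUNX1-ETO_ONLY was the lowest and CSF3R_ONLY the highest group, neither overlapping any other, and RUNX1-ETO_FIRST overlapped EMPTY. Fas was 2.80-fold lower than in EMPTY with the fusion alone (log2 -1.49, SE 0.35, adjusted p = 0.00305 in edgeR) and 3.17-fold higher with the receptor alone (1.66, 0.27, 0.000168). It was 2.10-fold higher in CSF3R_FIRST (1.07, 0.28, 0.00426 in edgeR) and not past the threshold in RUNX1-ETO_FIRST (-0.13, 95% interval -0.80 to 0.55). The receptor added to fusion cells raised Fas by 1.36 (SE 0.35, adjusted p = 0.0092 in edgeR), and without RUNX1-ETO_FIRST 1 this was 1.01 with an adjusted p of 0.0621. The fusion added to receptor cells gave -0.59 (95% interval -1.15 to -0.04, adjusted p = 0.0664 in edgeR). That change was past the threshold without the 4 length-skewed libraries (0.00321), without CSF3R_FIRST 3 (0.0458), EMPTY 3 (0.0451) or RUNX1-ETO_FIRST 1 (0.0416), with only the groups compared (0.0254) and with scaling to library size alone (0.0338).

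Bbc3 encodes PUMA, a BH3-only protein that promotes apoptosis by binding BCL2 family members, and it rose in each of the 3 groups that carried the fusion. Bbc3 (chr7:16308393-16318205, plus strand) measured 10.03, 13.1 and 12.2 CPM in EMPTY, 15.2, 18.1 and 16.3 in RUNX1-ETO_ONLY, 13.8, 15.1 and 13.4 in CSF3R_ONLY, 20.8, 19.3 and 16.6 in RUNX1-ETO_FIRST and 20.8, 22.4 and 19.5 in CSF3R_FIRST. Every library with the fusion lay above every library without it, by a narrow margin between RUNX1-ETO_ONLY and CSF3R_ONLY, whereas Mdm2 grouped by the receptor. The log2 change from EMPTY was 0.49 in RUNX1-ETO_ONLY (SE 0.12, adjusted p = 0.00415), 0.68 in RUNX1-ETO_FIRST (0.12, 0.000227) and 0.83 in CSF3R_FIRST (0.12, 2.53e-05) in edgeR's test. The receptor alone gave 0.26 (95% interval -0.01 to 0.53, adjusted p = 0.121 in edgeR), with groups that did not overlap. The fusion raised Bbc3 in receptor cells by 0.57 (SE 0.12, adjusted p = 0.000922 in edgeR). The receptor in fusion cells gave 0.19 (95% interval -0.07 to 0.45).

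Aen, which encodes an exonuclease with a role in apoptosis, was lower in the groups with both alleles than in those with 1. Aen (chr7:78895854-78911209, plus strand) measured 33.4, 32.9 and 24.4 CPM in EMPTY, 33.9, 37.0 and 31.0 in RUNX1-ETO_ONLY, 34.7, 35.1 and 34.5 in CSF3R_ONLY, 25.9, 27.4 and 27.97 in RUNX1-ETO_FIRST and 22.4, 26.6 and 21.6 in CSF3R_FIRST. All 6 libraries with both alleles lay below all 6 with 1 allele, and EMPTY 3 lay among the former. Adding the fusion to receptor cells lowered Aen by a log2 change of -0.56 (SE 0.12, adjusted p = 0.000915 in edgeR), and this call held under all 22 alternatives. Against EMPTY it fell in CSF3R_FIRST (log2 -0.36, SE 0.12, adjusted p = 0.0162 in edgeR), a call that was lost without CSF3R_FIRST 1 (0.0624), CSF3R_FIRST 3 (0.0727), EMPTY 1 (0.0766) or EMPTY 2 (0.0675) and with only the groups compared (0.121). The value in RUNX1-ETO_FIRST against EMPTY was -0.16 (adjusted p = 0.29 in edgeR), and without EMPTY 3 it was -0.31 (0.0122). Adding the receptor to fusion cells gave -0.33 (SE 0.11, adjusted p = 0.0477 in edgeR), close to the threshold. That call was lost under relative log expression scaling (0.0615) and without any 1 of 9 libraries, CSF3R_FIRST 1, the 3 of CSF3R_ONLY, the 3 of RUNX1-ETO_FIRST, RUNX1-ETO_ONLY 1 and RUNX1-ETO_ONLY 2, with adjusted p from 0.055 to 0.176. The change of Aen with the receptor alone was 0.20 (95% interval -0.06 to 0.46) and with the fusion alone 0.17 (-0.09 to 0.42).

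Zmat3 and Trp53inp1 act downstream of p53 in other ways. Zmat3 encodes a zinc finger protein that binds RNA and takes part in tumour suppression, and it rose in all 4 groups with an allele. Zmat3 (chr3:32334792-32366014, minus strand) measured 2.48, 2.33 and 2.40 CPM in EMPTY, 5.61, 6.06 and 7.96 in RUNX1-ETO_ONLY, 10.4, 13.4 and 11.6 in CSF3R_ONLY, 9.09, 9.19 and 9.47 in RUNX1-ETO_FIRST and 16.8, 11.9 and 15.04 in CSF3R_FIRST. The only groups that overlapped were CSF3R_ONLY and CSF3R_FIRST, which were also the highest. Against EMPTY, Zmat3 was 2.72-fold higher in RUNX1-ETO_ONLY (log2 1.44, SE 0.18, adjusted p = 8.04e-06 in edgeR), 4.90-fold in CSF3R_ONLY (2.29, 0.17, 3.69e-08), 3.84-fold in RUNX1-ETO_FIRST (1.94, 0.17, 1.69e-07) and 6.05-fold in CSF3R_FIRST (2.60, 0.17, 3.1e-09). These 4 calls held under all 22 alternatives. In fusion cells the receptor raised Zmat3 by 0.50 (SE 0.15, adjusted p = 0.0243 in edgeR), and this call was lost without RUNX1-ETO_FIRST 1 (0.0512), 2 (0.0548) or 3 (0.068), without RUNX1-ETO_ONLY 1 (0.108) or 2 (0.0889) and with scaling to library size alone (0.0621). In receptor cells the fusion gave 0.30 (95% interval -0.02 to 0.63, adjusted p = 0.101 in edgeR), which was 0.46 with 0.0182 without CSF3R_FIRST 2.

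Trp53inp1 encodes a stress-induced nuclear protein that promotes p53 activity and autophagy, and its highest group was CSF3R_ONLY. Trp53inp1 (chr4:11156431-11174379, plus strand) measured 14.7, 12.4 and 11.6 CPM in EMPTY, 19.1, 16.3 and 14.99 in RUNX1-ETO_ONLY, 26.4, 27.7 and 26.4 in CSF3R_ONLY, 11.6, 14.9 and 13.5 in RUNX1-ETO_FIRST and 16.6, 13.6 and 14.7 in CSF3R_FIRST. CSF3R_ONLY lay far above all other libraries, and both groups with both alleles overlapped EMPTY. The receptor alone raised Trp53inp1 2.08-fold (log2 1.057, SE 0.12, adjusted p = 5.88e-06 in edgeR). Adding the fusion to receptor cells lowered it 1.79-fold (log2 -0.84, SE 0.12, adjusted p = 3.57e-05 in edgeR). The fusion alone gave 0.38 (SE 0.12, adjusted p = 0.0249 in edgeR), a call that was lost without EMPTY 2 (0.0673), EMPTY 3 (0.0827) or RUNX1-ETO_ONLY 1 (0.127) and with only the groups compared (0.106). The changes from EMPTY with both alleles were 0.05 for RUNX1-ETO_FIRST (95% interval -0.24 to 0.33) and 0.22 for CSF3R_FIRST (-0.07 to 0.50). In fusion cells the receptor gave -0.33 (adjusted p = 0.0607 in edgeR), which was past the threshold without EMPTY 3 (0.029), RUNX1-ETO_FIRST 2 (0.0402) or RUNX1-ETO_ONLY 3 (0.039), without the 4 length-skewed libraries (0.0227) and with scaling to library size alone (0.0157).

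Per kilobase of merged exons, the order of levels shifted at the top. In EMPTY, Trp53 was the highest at 91.2 CPM per kilobase, followed by Cdkn1a at 49.3, Ccng1 at 29.7 and Mdm2 at 10.4, with Zmat3 the lowest at 0.210. In CSF3R_ONLY, Cdkn1a stood above Trp53 at 87.3 against 79.5 CPM per kilobase, and with both alleles it reached 139 in RUNX1-ETO_FIRST and 151 in CSF3R_FIRST against 92.6 and 81.0 for Trp53. Ccng1, Mdm2 and Bbc3 held ranks 3, 4 and 5 in every group. Across the 5 group means, Fas had the widest range of log2 CPM, 2.95, followed by Zmat3 with 2.53 and Cdkn1a with 1.64. Mdm2 had the narrowest, 0.40, below the median of 0.70 over all tested genes, as were Ccng1 and Trp53 at 0.48 and Aen at 0.57.

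**Figure D2:**
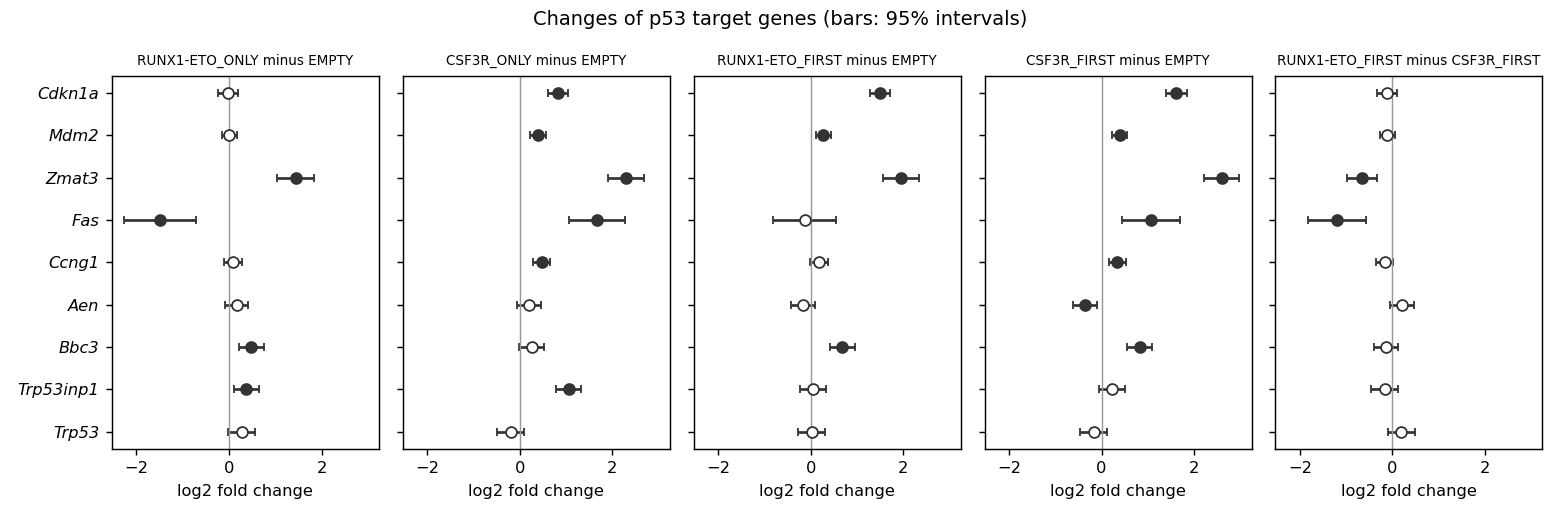
Log2 fold change of each of the 9 genes in the 4 comparisons with EMPTY and in RUNX1-ETO_FIRST against CSF3R_FIRST. Bars are 95% intervals from the SE at 10 degrees of freedom, and filled points passed the test at an adjusted p under 0.05. The F test adds prior degrees of freedom to these 10, so the intervals are wider than that test implies. Trp53 with the fusion alone had an unadjusted p of 0.0483 in edgeR, though its interval includes 0. In CSF3R_ONLY against EMPTY 6 genes lie above 0 and past the test, and the interval of Trp53 includes 0 in all 5 panels.

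The receptor alone raised more of these genes than the fusion alone. In CSF3R_ONLY against EMPTY, 6 of 9 rose (Cdkn1a, Mdm2, Zmat3, Fas, Ccng1 and Trp53inp1) and 0 fell, where 19.9% of all tested genes rose and 13.2% fell. The count of 0 was also 0 at an unadjusted p under 0.05 and in DESeq2, here and for the other counts of 0 among the 9 genes below. The median log2 change of the 9 genes was 0.47, that of all tested genes 0.00, and all 6 calls held under the 22 alternatives. In RUNX1-ETO_ONLY against EMPTY, 3 rose (Zmat3, Bbc3 and Trp53inp1) and Fas fell, where 20.8% of tested genes rose and 18.2% fell, with medians of 0.17 and 0.01. The share that rose there is not far above that of all genes. These comparisons share the EMPTY libraries, as do the next, so their values are given side by side and are not independent.

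With both alleles, 4 of 9 rose in RUNX1-ETO_FIRST against EMPTY (Cdkn1a, Mdm2, Zmat3 and Bbc3) and 0 fell, where 23.7% of tested genes rose and 20.2% fell. The median was 0.18 for the 9 genes and -0.02 for all tested genes. Without the 4 length-skewed libraries, 5 rose and 1 fell, and 7086 of all tested genes were called in place of 5768. In CSF3R_FIRST against EMPTY, 6 rose (Cdkn1a, Mdm2, Zmat3, Fas, Ccng1 and Bbc3) and Aen fell, where 26.8% rose and 26.7% fell. The medians were 0.39 and -0.05. With scaling to library size alone, 5 rose and 2 fell there, and over all genes the share of calls that were higher was 37.8% in place of 50.1%. That scaling moved the median of all genes in this comparison to -0.19.

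Adding the receptor to fusion cells raised 4 of 9 (Cdkn1a, Mdm2, Zmat3 and Fas) and lowered Aen, where 16% of tested genes rose and 10.3% fell. Of these, only the rise of Cdkn1a held in every alternative, and the number called ranged from 2 to 7 when 1 library was left out. It was 2 without RUNX1-ETO_ONLY 2 or RUNX1-ETO_FIRST 1, and 3 without RUNX1-ETO_ONLY 1, RUNX1-ETO_FIRST 2 or RUNX1-ETO_FIRST 3. Without the 4 length-skewed libraries, 4 rose and 3 fell, and 5146 of all tested genes were called in place of 3454. With scaling to library size alone, 2 rose and 3 fell, and over all genes the share of calls that were higher was 38.2% in place of 60.7%. Adding the fusion to receptor cells raised Cdkn1a and Bbc3 and lowered Aen and Trp53inp1, where 22.3% of tested genes rose and 22.6% fell. The counts of 2 in each direction are near those shares, and the medians were -0.01 for the 9 genes and -0.02 for all tested genes.

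The order of the alleles separated 2 of these 9 genes. In RUNX1-ETO_FIRST against CSF3R_FIRST, 0 of 9 were higher and 2 were lower, where 7.22% of tested genes were higher and 11.1% were lower. Such small counts are not far from those shares. Zmat3 was 1.58-fold lower with the fusion first (log2 -0.66, SE 0.15, adjusted p = 0.00514 in edgeR) and Fas was 2.29-fold lower (-1.20, 0.28, 0.00727). For both genes all 3 libraries of RUNX1-ETO_FIRST lay below all 3 of CSF3R_FIRST, and both calls held under the 22 alternatives. The difference of Cdkn1a was -0.12 (95% interval -0.33 to 0.10), that of Mdm2 -0.11 (-0.28 to 0.05) and that of Bbc3 -0.14 (-0.40 to 0.11). Ccng1 differed by -0.17 (-0.35 to 0.02) and was past the threshold without EMPTY 3 (adjusted p = 0.0316). Without the 4 length-skewed libraries, 4 genes were lower, with Ccng1 (0.0135) and Cdkn1a (-0.17, 0.018) added. In that fit 4436 of all tested genes were called in place of 2407. Mast cell markers were lower in this comparison too, all 5 of 5, and their part in these differences was not tested. Runx1t1 averaged 494 ± 99.3 CPM in RUNX1-ETO_FIRST and 712 ± 135 in CSF3R_FIRST, with groups that overlap. Runx1 averaged 611 ± 67.7 against 747 ± 67.0 CPM, without overlap. Of the 3 allele genes Runx1t1, Runx1 and Csf3r, 1 was lower and 0 were higher in edgeR's test. The part of the fusion transcript's level in these differences was not tested. Over all genes the share of calls that were higher was 39.4%, and 62.0% with scaling to library size alone, where the 2 calls among the 9 genes were again lower.

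**Figure D3:**
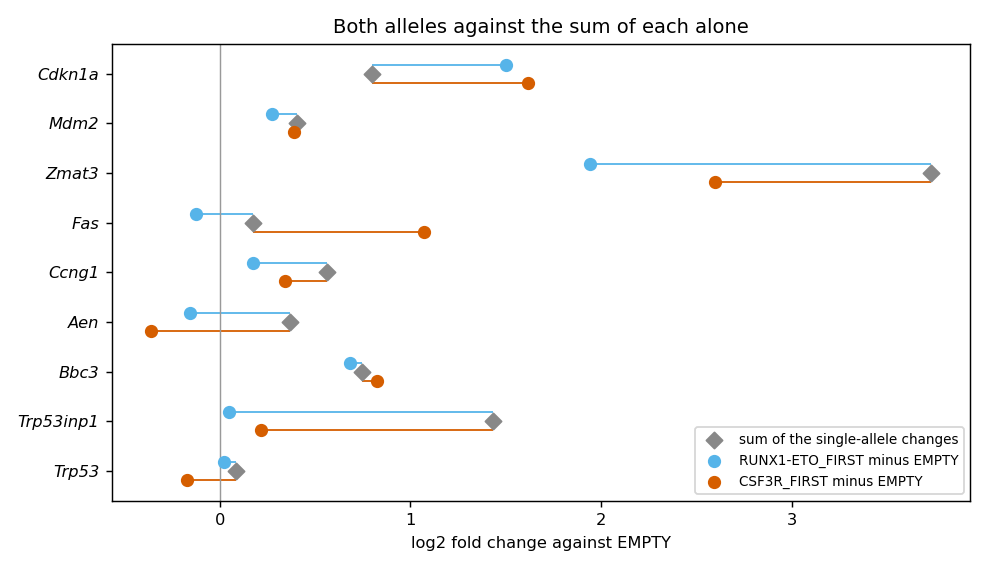
Log2 fold change against EMPTY for each of the 9 genes: diamonds are the sum of the changes in RUNX1-ETO_ONLY and CSF3R_ONLY, and points are the measured changes in RUNX1-ETO_FIRST and CSF3R_FIRST, each joined to the sum by a line. Cdkn1a lies above its sum of 0.80, at 1.499 and 1.62, and Zmat3, Trp53inp1 and Aen lie below theirs in both groups.

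A test of additivity asked whether the change with both alleles differed from the sum of the changes with each allele alone, on the log2 scale. With the fusion first, 1 of 9 was above the sum and 4 were below, where 6.42% of tested genes were above and 9.42% below. The 5 calls became 3 without any 1 of CSF3R_FIRST 1, the CSF3R_ONLY libraries, RUNX1-ETO_FIRST 1, RUNX1-ETO_FIRST 3 or RUNX1-ETO_ONLY 1, and when only the groups compared were fitted. With the receptor first, 1 was above and 3 were below, where the shares were 10.4% and 12.5%. The count of 1 above the sum is not far from the share of all genes in either order. Both tests share EMPTY and the single-allele groups. Cdkn1a was the gene above its sum: the single changes add to 0.80, or 1.74-fold, and the measured change exceeded this by 0.70 with the fusion first (SE 0.14, adjusted p = 0.0023 in edgeR) and by 0.82 with the receptor first (0.14, 0.000492). Zmat3 was below, with a sum of 3.73 that corresponds to 13.3-fold and departures of -1.79 (0.23, 5.41e-05) and -1.14 (0.23, 0.00196 in edgeR). Its level with the fusion first lay below that of CSF3R_ONLY. Trp53inp1 had a sum of 1.44 and departures of -1.39 (0.18, 4.25e-05) and -1.22 (0.17, 0.000121 in edgeR).

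Aen had a sum of 0.37 and departures of -0.53 with the fusion first (SE 0.16, adjusted p = 0.0381) and -0.73 with the receptor first (0.16, 0.00411 in edgeR). Ccng1 departed by -0.39 with the fusion first (SE 0.12, adjusted p = 0.0382 in edgeR) and by -0.22 with the receptor first (0.12, 0.203). The departures of Cdkn1a, Zmat3 and Trp53inp1 in both orders, and that of Aen with the receptor first, held under all 22 alternatives. With the fusion first, that of Aen passed in 12 of 22 and that of Ccng1 in 9 of 22. The call of Aen was lost without CSF3R_FIRST 1, any of CSF3R_ONLY, any of RUNX1-ETO_FIRST, RUNX1-ETO_ONLY 1 or RUNX1-ETO_ONLY 2 (adjusted p 0.0605 to 0.102) and with only the groups compared (0.0531). The call of Ccng1 was lost without any of CSF3R_FIRST, any of CSF3R_ONLY, EMPTY 3, RUNX1-ETO_FIRST 1, RUNX1-ETO_FIRST 3, RUNX1-ETO_ONLY 1 or RUNX1-ETO_ONLY 3 (0.0507 to 0.1), with no filter on low counts (0.0954) and with only the groups compared (0.071). Bbc3 and Mdm2 were not past the threshold, with departures of -0.06 (95% interval -0.44 to 0.31) and -0.13 (-0.37 to 0.10) with the fusion first and 0.08 (-0.29 to 0.45) and -0.02 (-0.25 to 0.22) with the receptor first. Fas departed by -0.30 (-1.34 to 0.73) and 0.89 (-0.07 to 1.85), intervals too wide to separate its behaviour from additivity. Trp53 departed by -0.06 and -0.26, and the latter was past the threshold without EMPTY 3 (-0.43, adjusted p = 0.0091). Over all genes, scaling to library size alone left 26.9% of the receptor-first calls above the sum in place of 45.5%.

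**Figure D4:**
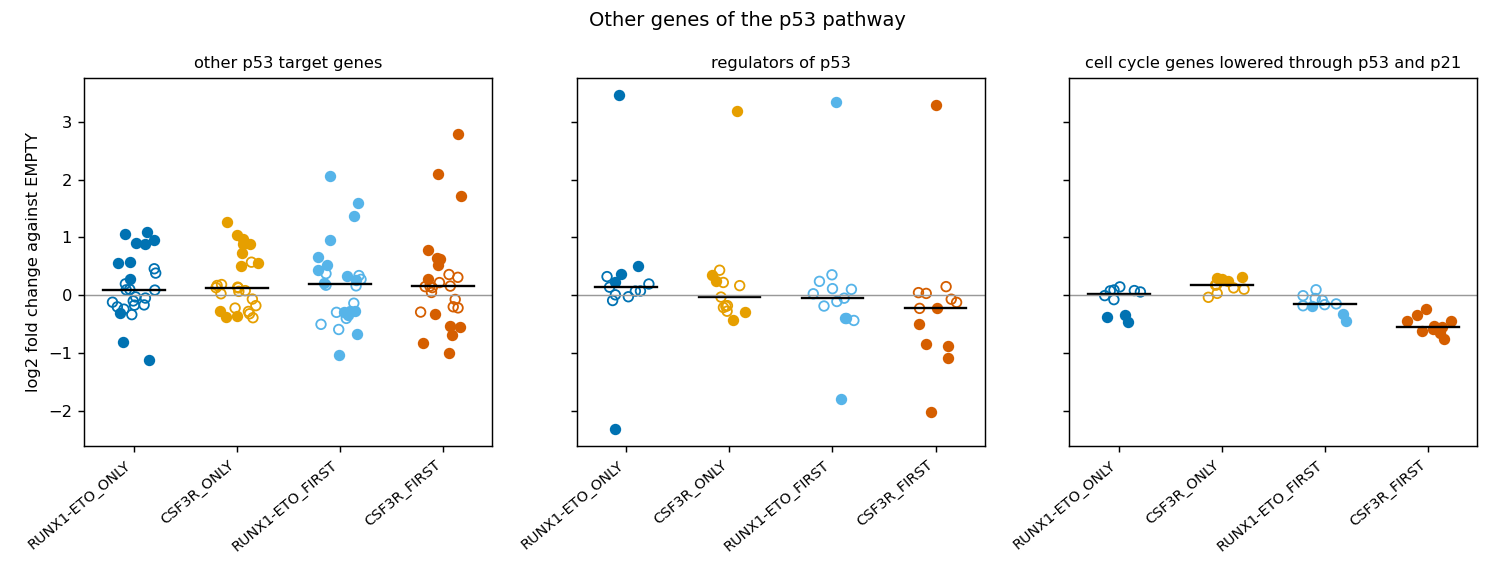
Log2 fold change against EMPTY of 26 further p53 targets, 13 regulators of p53 and 10 cell cycle genes in the 4 groups with an allele; each point is a gene, filled where it passed the test at an adjusted p under 0.05, and lines are list medians. All 10 cell cycle genes lie below 0 and past the test in CSF3R_FIRST, and Cdkn2a is the top point among the regulators in every group, at 3.18 to 3.46.

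Further p53 targets moved in both directions. Of 30 listed, 26 were tested (Eda2r, Gdf15, Plk2 and Spata18 were not). Against EMPTY, 8 rose and 3 fell with the fusion alone, 8 rose and 3 fell with the receptor alone, 10 rose and 6 fell in RUNX1-ETO_FIRST and 8 rose and 6 fell in CSF3R_FIRST. Of all tested genes, 20.8% rose and 18.2% fell, 19.9% rose and 13.2% fell, 23.7% rose and 20.2% fell, and 26.8% rose and 26.7% fell in these comparisons, so the counts of the list in CSF3R_FIRST are near those shares. Their median log2 changes were 0.09, 0.13, 0.19 and 0.15. Without the 4 length-skewed libraries, the receptor-alone counts were 13 and 5, where 6151 of all tested genes were called in place of 4347. Adding the receptor raised 8 and lowered 4, where 16% of tested genes rose and 10.3% fell, with 8 and 8 without the 4 length-skewed libraries and 9 and 7 without EMPTY 3. Adding the fusion raised 9 and lowered 10, where 22.3% rose and 22.6% fell. With scaling to library size alone, 7 rose and 7 fell in RUNX1-ETO_FIRST and 6 rose and 8 fell in CSF3R_FIRST against EMPTY, and adding the receptor raised 4 and lowered 10, so the balance of higher and lower calls in these 3 comparisons depends on the scaling. Between the orders 2 were higher and 2 lower with the fusion first, with 4 and 5 without the 4 length-skewed libraries, 3 and 5 without EMPTY 3 and 5 and 1 with scaling to library size alone. Of all tested genes, 7.22% were higher and 11.1% lower.

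Plk3, a polo-like kinase that responds to stress, had the largest change of this list. It stood at 9.27 ± 1.057 CPM in EMPTY, 17.2 ± 1.66 in RUNX1-ETO_ONLY, 15.3 ± 1.69 in CSF3R_ONLY, 38.6 ± 2.38 in RUNX1-ETO_FIRST and 64.1 ± 1.11 in CSF3R_FIRST. Like Cdkn1a it was highest with both alleles, but Plk3 was lower in RUNX1-ETO_FIRST than in CSF3R_FIRST (log2 -0.73, SE 0.10, adjusted p = 8.38e-05 in edgeR). It exceeded the sum of the single changes with the receptor first, by 1.17 (SE 0.15, adjusted p = 4.23e-05 in edgeR). With the fusion first the departure was 0.44 (SE 0.15, adjusted p = 0.0612 in edgeR), and it was past the threshold in DESeq2 (0.45, 0.0364), with the replicate block (0.0398) and without EMPTY 1 (0.0403) or RUNX1-ETO_ONLY 2 (0.0403). Tnfrsf10b, a death receptor for TRAIL, rose from 1.15 CPM in EMPTY to 2.15 and 2.38 in RUNX1-ETO_ONLY and CSF3R_ONLY, then 3.50 in RUNX1-ETO_FIRST and 4.98 in CSF3R_FIRST. Tnfrsf10b was low, with 61, 125, 123, 188 and 249 counts over the 3 libraries of each group in this order. Its log2 changes were 0.90, 1.04, 1.60 and 2.10, with adjusted p of 0.00597, 0.00251, 2.27e-05 and 6.28e-07 in edgeR. Btg2, which restrains proliferation, rose by 0.96, 1.27, 1.38 and 1.71 in the same groups, with adjusted p of 5.64e-05, 3.41e-06, 7.84e-07 and 4.2e-08 in edgeR. Gadd45a, a growth arrest gene induced by DNA damage, went both ways: it fell with the fusion alone (log2 -1.11, adjusted p = 1.49e-05 in edgeR), rose with the receptor alone (0.97, 3.95e-05) and fell when the fusion was added to receptor cells (-1.18, 3.22e-06). Its levels were 17.1 CPM in EMPTY, 7.88 in RUNX1-ETO_ONLY, 33.3 in CSF3R_ONLY, 10.8 in RUNX1-ETO_FIRST and 14.7 in CSF3R_FIRST, an order near that of Fas. The abundant targets Bax, an effector of mitochondrial apoptosis, and Rps27l, a ribosomal protein paralog, passed the test in none of 7 pair comparisons with all libraries, with means of 32.3 to 45.1 and 26.5 to 35.0 CPM. Without EMPTY 3, Bax was past the threshold against EMPTY in RUNX1-ETO_FIRST (0.36, adjusted p = 0.033) and CSF3R_FIRST (0.52, 0.00256) and with the receptor added (0.34, 0.0323; 0.50 with 0.0383 without RUNX1-ETO_ONLY 3). Bax passed in 6 of the 7 without the 4 length-skewed libraries, with adjusted p from 7.88e-06 to 0.039, and was not past the threshold with the fusion alone. Rps27l was lower in RUNX1-ETO_FIRST against EMPTY without EMPTY 1 (-0.55, 0.0392) or EMPTY 2 (-0.54, 0.0402).

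Of 15 listed regulators of p53, 13 were tested (Trp63 and Trp73 were not). The counts that rose and fell against EMPTY were 4 and 1 with the fusion alone, 3 and 2 with the receptor alone, 1 and 3 in RUNX1-ETO_FIRST and 1 and 6 in CSF3R_FIRST. The shares of all tested genes given above for these comparisons bear on these counts too, and 3 and 2 of 13 with the receptor alone are near 19.9% and 13.2%. Without the 4 length-skewed libraries, they were 6 and 1, 5 and 6, 3 and 6, and 1 and 7. In those fits 6369, 6151, 7086 and 8381 of all tested genes were called, in place of 5117, 4347, 5768 and 7021. The receptor-alone counts were 1 and 2 with scaling to library size alone and 1 and 4 without EMPTY 3, and those of RUNX1-ETO_FIRST were 1 and 5 without EMPTY 3. When the receptor was added 0 rose and 3 fell, where 16% of all tested genes rose and 10.3% fell. When the fusion was added 0 rose and 6 fell, where 22.3% rose and 22.6% fell. At an unadjusted p under 0.05 in edgeR these counts were 0 and 4, and 0 and 8, and no share of all genes was taken at that threshold. Without the 4 length-skewed libraries they were 2 and 6, and 2 and 10. In those fits 5146 and 7587 of all tested genes were called, in place of 3454 and 5895. Between the orders 2 were higher and 0 lower with the fusion first, with 4 and 0 at an unadjusted p under 0.05 and 6 and 0 without the 4 length-skewed libraries, where 7.22% of all tested genes were higher and 11.1% lower with all libraries. Cdkn2a rose in all 4 groups. It encodes the cell cycle inhibitor p16 and, from another reading frame, ARF, which restrains MDM2, and a count per gene does not separate them. Cdkn2a stood at 0.392 ± 0.184 CPM in EMPTY, from 21 counts in all, and at 4.44 ± 0.308, 3.65 ± 0.935, 4.07 ± 0.597 and 3.92 ± 0.128 CPM in RUNX1-ETO_ONLY, CSF3R_ONLY, RUNX1-ETO_FIRST and CSF3R_FIRST. The log2 changes were 3.46, 3.18, 3.34 and 3.28, with adjusted p of 7.87e-08, 3.68e-07, 1.02e-07 and 1.04e-07 in edgeR, so the level with both alleles was near that with 1 and the departures from additivity were -3.30 and -3.36 (9.28e-06 and 7.82e-06). Hipk2, a kinase that phosphorylates p53, fell in every group with the fusion, with log2 changes of -2.31, -1.80 and -2.02 in RUNX1-ETO_ONLY, RUNX1-ETO_FIRST and CSF3R_FIRST (adjusted p = 4.73e-06, 4.25e-05 and 1.05e-05 in edgeR). With the receptor alone its change was -0.21 (adjusted p = 0.575 in edgeR), and without the 4 length-skewed libraries it fell there too (-0.51, 0.000279). EMPTY 3 was low in Hipk2, at 130 CPM against a highest control of 287. Chek1 and Atr, kinases of the replication stress response, fell in CSF3R_FIRST against EMPTY (log2 -0.88 and -0.85, adjusted p = 1.42e-07 and 3.87e-05 in edgeR). Both were higher in RUNX1-ETO_FIRST than in CSF3R_FIRST (0.49 and 0.45, adjusted p = 0.000545 and 0.022 in edgeR). Falls against EMPTY were not confined to CSF3R_FIRST. Mean Chek1 was 28.6 CPM in EMPTY, 32.7 in RUNX1-ETO_ONLY, 23.5 in CSF3R_ONLY, 21.7 in RUNX1-ETO_FIRST and 15.5 in CSF3R_FIRST. Mean Atr was 42.8, 40.2, 31.7, 32.6 and 23.8 CPM in the same groups. Both fell with the receptor alone (-0.28 and -0.43), and Atr fell in RUNX1-ETO_FIRST (-0.39), calls that some alternatives lost. The order call of Atr was lost without RUNX1-ETO_FIRST 2 (0.108) or 3 (0.0693), or without CSF3R_FIRST 1 (0.0659), 2 (0.0587) or 3 (0.108). Ep300 and Trp53bp1, a coactivator and a damage response protein, passed the test in none of 7 pair comparisons with all libraries. Each passed in 5 of them without the 4 length-skewed libraries, Ep300 with adjusted p from 5.59e-05 to 0.00812 and Trp53bp1 from 1.87e-07 to 0.0245. Ep300 was also past the threshold with the receptor alone without EMPTY 2 (0.60, 0.0479) and, when only the groups compared were fitted, with the fusion added (-0.36, 0.00436), and Trp53bp1 with the receptor alone without EMPTY 3 (-0.47, 0.049).

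The 10 listed cell cycle genes that p53 and p21 are known to lower were tested in full. In CSF3R_FIRST all 10 fell against EMPTY and all 10 fell against CSF3R_ONLY, also without the 4 length-skewed libraries, where 26.7% and 22.6% of all tested genes fell with all libraries. Without those 4 libraries, 8381 and 7587 of all tested genes were called in these 2 comparisons, in place of 7021 and 5895. In RUNX1-ETO_FIRST, 3 fell and 0 rose against EMPTY, and 5 fell without the 4 length-skewed libraries, 5 with scaling to library size alone and 2 without EMPTY 3. In the same group 8 of 10 were higher than in CSF3R_FIRST, where 7.22% of all tested genes were. With the receptor alone 4 rose and 0 fell, or 6 and 0 without the 4 length-skewed libraries, and with the fusion alone 0 rose and 3 fell. Without those libraries 6151 of all tested genes were called with the receptor alone, in place of 4347. Of all tested genes, 19.9% rose with the receptor alone, 18.2% fell with the fusion alone and 20.2% fell in RUNX1-ETO_FIRST, so 3 of 10 lower is not far from the share of all genes in the latter 2 comparisons. Adding the receptor to fusion cells changed 0 of 10 in edgeR and 0 in DESeq2, with 1 higher and 2 lower at an unadjusted p under 0.05, and 4 fell with scaling to library size alone. There 1 rose and 3 fell without the 4 length-skewed libraries, and 2 fell without EMPTY 3 alone. The mitotic kinase gene Aurka stood at 108 ± 4.32 CPM in EMPTY, 78.2 ± 7.04 in RUNX1-ETO_ONLY, 132 ± 5.22 in CSF3R_ONLY, 86.6 ± 6.28 in RUNX1-ETO_FIRST and 68.3 ± 1.27 in CSF3R_FIRST. Adding the fusion to receptor cells lowered Aurka by a log2 change of -0.95, Plk1, another mitotic kinase gene, by -0.85, Cdk1, the kinase of mitotic entry, by -0.72 and Birc5, which encodes survivin, by -0.71 (adjusted p = 6.81e-08, 1.24e-07, 9.45e-05 and 3.73e-05 in edgeR). Aurka was higher in RUNX1-ETO_FIRST than in CSF3R_FIRST by 0.34 (SE 0.08, adjusted p = 0.00583 in edgeR).

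The genes with the profile most like that of Cdkn1a were named by the root mean square distance between centred log2 CPM means of the 5 groups, over the 8762 genes whose mean log2 CPM was 3 or more. They were Bhlhe40 (0.0837), Emilin2 (0.146), Hmgcs1 (0.153), Anxa2 (0.156) and Lss (0.160). None of these is on the lists above. The genes most like Trp53 were Ears2 (0.0167), Pnisr (0.0249), Ercc2 (0.0251), Ddx21 (0.0257) and Dph2 (0.0290). A profile of 5 means is short, and the level of Trp53 in EMPTY rests on 3 libraries of which EMPTY 3 stood apart.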

How the data were processed

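Per the labels, total RNA was extracted with a column kit and an on-column DNase step, and the mRNA libraries were of a BGI DNBSEQ strand-specific kind. The values are raw counts for each gene symbol, deposited by the authors as 1 table whose 15 columns were all used. STAR, Trimmomatic, DESeq2 and mm10 are named in the submitters' processing notes, with neither versions nor roles, and the counting program, annotation and use of strand are not given in those sources. The table had 52328 entries. The entry that names no gene held 0.0179% to 0.0305% of a library's counts and was left out.

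Genes were filtered by edgeR 4.0.16 within groups under R 4.3.3 and scaled by TMM (factors 0.921 to 1.09). A single robust quasi-likelihood fit of the 5 group means to the 15 libraries left 10 residual degrees of freedom and gave the F tests. Tests are two-sided, and log2 CPM has a prior count of 2. Alternatives were DESeq2 1.42.0, other scalings, no filter, a replicate block, only the groups compared, and leaving out libraries. The script was tested on simulated data. Exon lengths come from GENCODE M21 on mm10, and promoter windows from RefSeq. No pair of replicates was alike within sampling noise. The labels do not say what a replicate number shares. Same-number libraries deviated together, with each of 3 correlations over 0.1, between EMPTY and RUNX1-ETO_ONLY (0.283 to 0.455) and between EMPTY and CSF3R_FIRST (0.136 to 0.37). EMPTY 3, RUNX1-ETO_ONLY 3 and CSF3R_FIRST 3 are all length-skewed, and EMPTY 2 correlated best with CSF3R_FIRST 1. Whether the numbers pair the libraries apart from that skew was not tested. The correlations were judged for each pair of groups with the results of the block known. The fit without the block remains the reported one, and the block was an alternative for all 15 libraries. In no other pair of groups did all 3 correlations pass 0.1, and over all pairs of groups 9 of 30 passed (range -0.243 to 0.455).

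The genes and lists were chosen with earlier results of these data known. All 9 genes are named. From each further list, those named are up to 4 genes that passed the threshold with the largest changes and groups that do not overlap, and up to 2 most abundant genes past it in no pair comparison, with the 5 genes most like Cdkn1a and like Trp53.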

Additional observations from a re-analysis of the deposited data

Results flagged for a closer look

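In the tests of additivity, the response to one allele differed between cells with and without the other for 5 of the 9 genes in at least 1 order. With the fusion first 1 of 9 departed upward and 4 downward, and with the receptor first 1 and 3. Of all tested genes, 6.42% departed upward and 9.42% downward with the fusion first, and 10.4% and 12.5% with the receptor first. The count of 1 upward is not far from the share of all genes in either order. No share of all genes was taken for departure in at least 1 order. On the log2 scale, Cdkn1a exceeded the sum of the single changes by 0.70 with the fusion first (adjusted p = 0.0023 in edgeR) and by 0.82 with the receptor first (0.000492). Zmat3 departed by -1.79 with the fusion first (5.41e-05) and -1.14 with the receptor first (0.00196). Trp53inp1 departed by -1.39 (4.25e-05) and -1.22 (0.000121), and Aen by -0.53 (0.0381) and -0.73 (0.00411). Ccng1 departed by -0.39 with the fusion first (0.0382) and was not past the threshold with the receptor first (-0.22, 0.203). With the fusion first, the call of Ccng1 held in 9 of 22 alternatives and that of Aen in 12 of 22.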

How the results depend on the processing

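Over the 9 genes, 9 tests and 22 alternatives, 1696 of 1782 values stayed on their side of the threshold. Of the others, 55 were no longer past it and 31 were newly past it, and 0 values that were past it in either fit reversed. Among the 1696, 55 values changed sign without being past the threshold in either fit. DESeq2 left 81 of 81 calls as they were. The number of the 9 genes called was 4 in place of 2 for the order of alleles without the 4 length-skewed libraries, and 3 in place of 5 for additivity with the fusion first when only the groups compared were fitted. Over all tested genes these numbers were 4436 in place of 2407, and 1879 in place of 2078. Without the 4 length-skewed libraries, more of all tested genes were called in each of the 9 tests. Among the genes of the further lists, Cdk1 was past the threshold in CSF3R_ONLY against EMPTY without those 4 libraries (0.13, adjusted p = 0.0386) in place of -0.03, and the cause was not tested. With 1 library left out in turn, the number called ranged from 2 to 3 for the order, 3 to 4 for the fusion alone, 6 to 6 for the receptor alone, 4 to 6 for RUNX1-ETO_FIRST, 6 to 7 for CSF3R_FIRST, 2 to 7 for the receptor added, 4 to 5 for the fusion added, and 3 to 5 and 4 to 5 for additivity with the fusion and the receptor first.

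With the replicate block, the number called was 5 in place of 4 for the fusion alone, with Trp53 added (0.0366), and unchanged in the other 8 tests (2, 6, 4, 7, 5, 4, 5 and 4). It changed no other call of the 9 genes. Depth limits Fas most, with 11 to 102 counts per library.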
